A study of Homo sapiens with 6 samples.

Results

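The genes described are 10 components of the TGF-beta and activin pathway in HaCaT cells, a spontaneously immortalized human keratinocyte line. They were chosen by symbol, with earlier results of these data known. They are the ligand genes *INHBA*, *TGFB1* and *TGFB2*, the receptor genes *TGFBR1*, *TGFBR2* and *ACVR1B*, the signal transducers *SMAD3*, *SMAD4* and *SMAD7*, and the antagonist gene *FST*. All 10 were found among the 21475 genes used. RNA-seq data came from 3 WT and 3 *FGFR2* KO lines, with 1 library per line. All lines grew in high-glucose DMEM with fetal bovine serum and received no further stimulus. Serum itself contains TGF-beta. The KO lines are clones obtained with Cas9 and a single sgRNA against *FGFR2*, a receptor for fibroblast growth factors, and each KO replicate is therefore 1 clone. The sequenced WT lines had been expanded from sorted cells as well. Differences between groups include differences between clones, and the p-values measure only the spread between these lines.

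TGF-beta and activin are secreted dimers that bind a type II receptor, which then activates a type I receptor kinase. TGF-beta uses TGFBR2 and TGFBR1, whereas activin A, the dimer of the *INHBA* product, uses an activin type II receptor and ACVR1B. Both type I receptors phosphorylate SMAD2 and SMAD3, which bind SMAD4 and enter the nucleus. SMAD7 blocks the receptors and is itself induced by the pathway, and follistatin, the product of *FST*, captures activin outside the cell. In keratinocytes TGF-beta is known for arresting proliferation, and both ligands are known for their roles in wound repair.

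Expression was deposited as FPKM, which divides fragments by transcript length and by library depth, so that levels of different genes can be compared per length. Each library summed to 738647.5 to 780014.1 FPKM, and from the steps between low values the depth was estimated as 70000000 to 91900000 fragments. *FGFR2* had 21.6, 39.7 and 15.0 FPKM in the WT lines, and 3.04, 2.26 and 4.31 FPKM in the KO lines, in the order of replicates 1, 2 and 3, as in all such series of values that follow. Each KO line was below each WT line. Mitochondrially encoded genes took 21.5% to 27.6% of the FPKM in the WT lines and 11.9% to 23.7% in the KO libraries, with the lowest share in KO replicate 3. All 7 keratinocyte markers were expressed, led by *KRT5* with 6086 to 14768 FPKM. Of the fibroblast markers, *COL1A1* reached 6.82 to 16.7 FPKM, while *COL1A2*, *COL3A1*, *PDGFRA* and *PDGFRB* stayed at or below 0.0638 FPKM. *DCN* had 15.5 FPKM in WT replicate 2 and 1.66 FPKM in KO replicate 1, *LUM* had 0.903 and 1.85 FPKM in the same libraries, and both were at or below 0.293 FPKM in the other libraries. The summed level of the 7 markers was 7.99 to 33.2 FPKM in WT and 6.92 to 12.6 FPKM in KO. The melanocyte markers added up to 0.881 to 2.44 FPKM in WT and 0.708 to 1.07 FPKM in KO, nearly all of it *PMEL*, with *MLANA* and *TYR* listed at 0 in the WT libraries. The immune markers added up to no more than 0.459 FPKM, and *PTPRC* (0.115 FPKM) and *CD74* (0.109 FPKM) had the highest means over the 6 libraries. The 3 endothelial markers added up to 18.1 to 27.2 FPKM in WT and 5.82 to 17.5 FPKM in KO, and nearly all of this was *VWF*, except in WT replicate 2, where *CDH5* reached 4.92 FPKM. The part of these markers in the results was not tested.

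In the cells as a whole, *SMAD3* was by far the most abundant of the 10 transcripts, *INHBA* was low and *TGFB2* was too low to be tested. None of the 9 genes that could be tested passed the test between KO and WT lines. On the log2 scale the largest differences among them were those of *FST* and *TGFBR1*, both with higher means in the KO lines, and both were highest in KO replicate 3. The smallest belonged to *TGFBR2*.

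**Figure D1:**
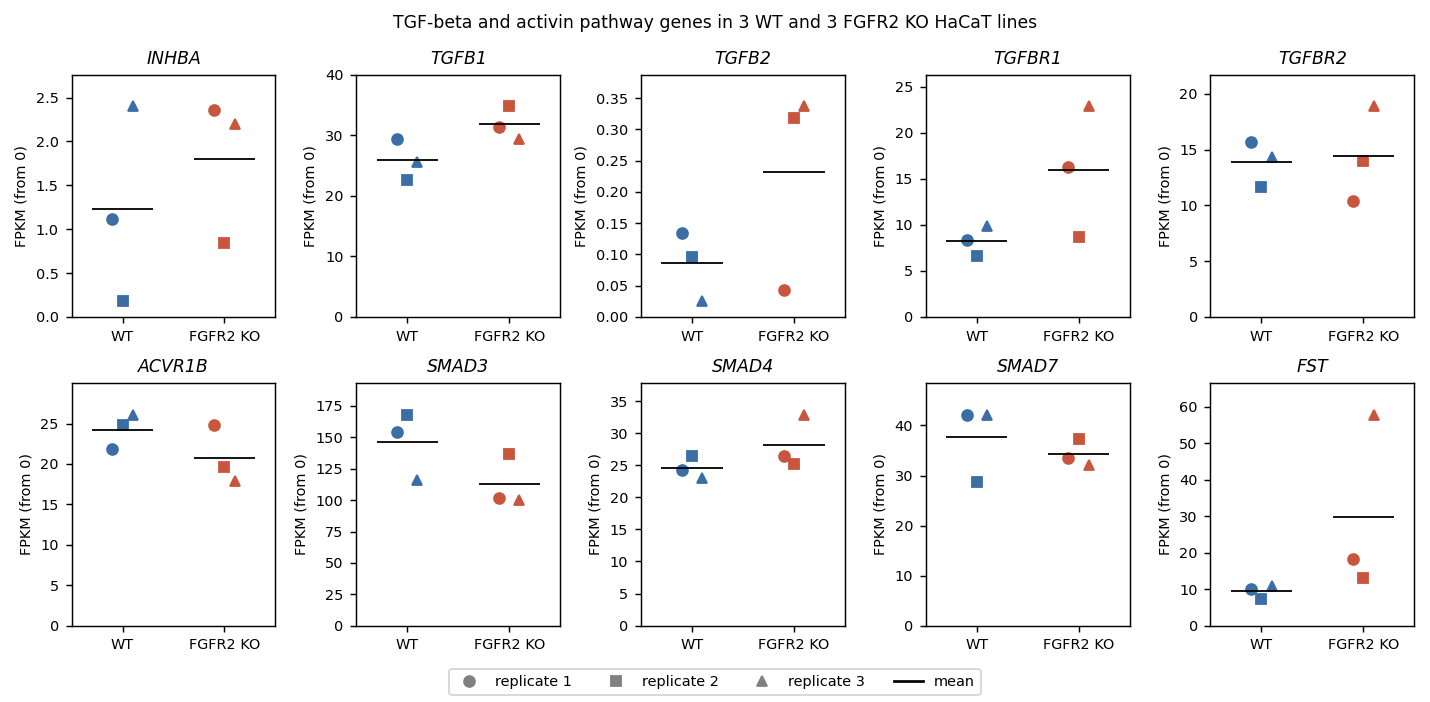
FPKM (vertical axes, each from 0) of the 10 genes in the 3 WT and the 3 *FGFR2* KO lines, with 1 point per library, the replicate number as symbol and the group mean as a horizontal line. *FST* reached 57.8 FPKM in KO replicate 3 and at most 18.2 FPKM in the other lines. In FPKM as deposited, *TGFB1* and *FST* are the genes in which each KO library lay above each WT library. For *TGFB1* the closest values are 29.38 FPKM in KO replicate 3 and 29.345 FPKM in WT replicate 1.

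The promoters of *FST* and *TGFBR1*, the 2 tested genes with the largest log2 fold changes, and of *SMAD7*, the feedback gene of the pathway, are shown for context. They are the 250 bases before the first listed RefSeq start in GRCh38.p14, 5′ to 3′ in the direction of transcription, at chr5:53480379-53480628 on the plus strand, chr9:99104863-99105112 on the plus strand and chr18:48950966-48951215 on the minus strand. *TGFBR1* has 8 listed starts, *SMAD7* has 3 and *FST* has 1. Capitals mark a match on either strand to CAGAC, 1 form of a SMAD binding element, or to TGANTCA. The latter is wider than the AP-1 consensus, TGACTCA or TGAGTCA. Other and shorter forms of the SMAD element are not marked.
FST: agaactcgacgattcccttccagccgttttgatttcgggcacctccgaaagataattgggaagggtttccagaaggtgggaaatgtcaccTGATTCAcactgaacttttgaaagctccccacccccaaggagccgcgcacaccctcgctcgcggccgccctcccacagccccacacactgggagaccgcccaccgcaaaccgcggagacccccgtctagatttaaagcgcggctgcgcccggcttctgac
TGFBR1: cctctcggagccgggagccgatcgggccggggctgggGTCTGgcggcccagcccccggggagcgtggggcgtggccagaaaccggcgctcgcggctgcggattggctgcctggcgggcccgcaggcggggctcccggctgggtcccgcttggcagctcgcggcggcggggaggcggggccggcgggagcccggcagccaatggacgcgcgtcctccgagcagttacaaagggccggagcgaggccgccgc
SMAD7: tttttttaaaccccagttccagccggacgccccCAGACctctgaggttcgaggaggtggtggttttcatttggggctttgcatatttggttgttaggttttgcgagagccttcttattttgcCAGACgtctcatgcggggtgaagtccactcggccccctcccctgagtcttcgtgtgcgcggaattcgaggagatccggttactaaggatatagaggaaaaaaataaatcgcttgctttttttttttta
The *FST* window held 1 match to TGANTCA, beginning 160 bases before the start, and 0 matches to CAGAC. The match reads TGATTCA, which is not the AP-1 consensus. *TGFBR1* held 1 CAGAC match, on the opposite strand, and *SMAD7* held 2. Among all 10 genes, *TGFB2*, *TGFBR1* and *SMAD7* had a CAGAC match, and *FST* was the gene with a TGANTCA match. Of 27303 promoter windows of the same length in RefSeq, 37.8% held CAGAC and 6.6% held TGANTCA. The motifs were chosen with the expression values known, and a match describes letters in a window and is not a measured binding site.

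The 10 levels spread over 3 groups. The mean of *SMAD3* over the 6 libraries was 129 FPKM, with a range of 99.7 to 168 FPKM that did not overlap with any other of the genes. *SMAD7* followed with a mean of 36.0 FPKM, *TGFB1* with 28.9 FPKM, *SMAD4* with 26.4 FPKM, *ACVR1B* with 22.5 FPKM, *FST* with 19.6 FPKM, *TGFBR2* with 14.2 FPKM and *TGFBR1* with 12.1 FPKM. In this middle group each gene overlapped with its neighbours in the order, while the lowest *SMAD7* value, 28.8 FPKM, lay above the highest values of *ACVR1B*, *TGFBR1* and *TGFBR2*, and the lowest *SMAD4* value, 22.938 FPKM, just above the highest *TGFBR1* value, 22.888 FPKM. *INHBA* had a mean of 1.52 FPKM and *TGFB2* one of 0.159 FPKM. The highest *INHBA* value, 2.40 FPKM, lay below the lowest *TGFBR1* value, 6.61 FPKM, but the lowest *INHBA* value, 0.183 FPKM, lay below the highest *TGFB2* value, 0.337 FPKM.

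For the comparison of KO with WT, the 12241 genes that averaged 0.5 FPKM or more were tested with limma on log2(FPKM + 0.5), a scale that understates the change of low genes. A gene was called when its adjusted p did not exceed 0.05 and its log2 fold change was 0.5 or more in either direction. The test called 0 of the 9 tested genes, and 0% of all tested genes, among which 0.261 was the smallest adjusted p. *FGFR2* itself was not called, with a log2 fold change of -2.73. Its unadjusted p was 9.2e-05 and its adjusted p 0.261 by limma. A gene that was not called is therefore not shown to be unchanged. When the unadjusted p was held to 0.05 with the same minimum change, *TGFBR1* and *FST* were higher in KO, as were 10.2% of all tested genes, and 0 of the 9 were lower, against 2.33% of all. Of the 1536 genes at this level 81.4% were higher in KO, a share that was 62.6% with median-of-ratios scaling, 61.5% with quantile normalization and 69.9% after scaling to nuclear genes. In FPKM as deposited, each KO library lay above each WT library for *TGFB1* and *FST*, 2 of the 9, and for 18.3% of all tested genes. Each KO library lay below each WT library for 0 of the 9 and for 5.77% of all. The median log2 fold change was 0.19 over the 9 and 0.09 over all tested genes. In bulk RNA, fewer cells that express a gene and less RNA per cell cannot be told apart.

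**Figure D2:**
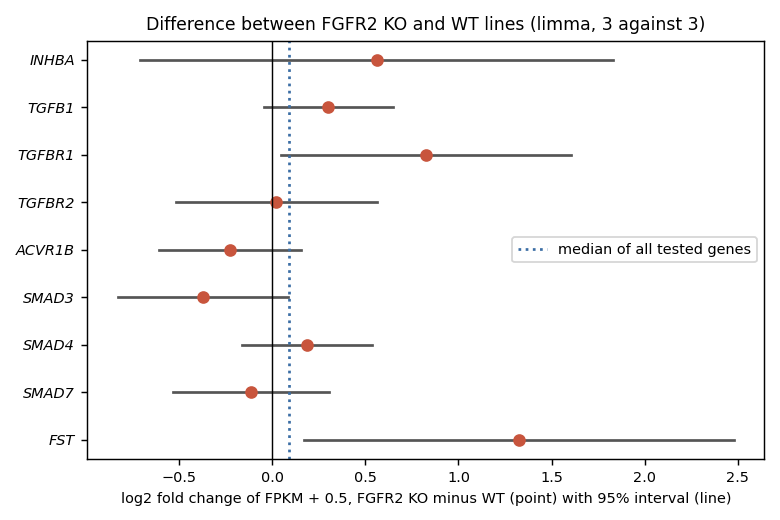
Log2 fold change of FPKM + 0.5, KO minus WT (horizontal axis, points), with its 95% interval from limma (lines) for the 9 tested genes; the dotted line is the median of all 12241 tested genes, 0.09. The intervals of *TGFBR1* and *FST* lie above 0 before adjustment for the number of genes, and those of the other 7 include 0.

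Among the ligands, *TGFB1* (ENSG00000105329, chromosome 19 from 41301587 to 41353922, minus strand), which encodes TGF-beta 1, was the most abundant. Positions are in GRCh38. It had 29.345, 22.6 and 25.7 FPKM in the WT lines and 31.4, 34.8 and 29.38 FPKM in the KO lines. In FPKM as deposited the groups did not overlap, but WT replicate 1 and KO replicate 3 were nearly equal. Mitochondrial genes took 27.6% of the FPKM in WT replicate 1 and 11.9% in KO replicate 3. Scaling to nuclear genes puts WT replicate 1 above KO replicate 3, so that the groups then overlap. Averages came to 25.9 ± 3.40 FPKM in WT and 31.9 ± 2.76 FPKM in KO (SD, n = 3 lines each). On the log2 scale the difference was 0.30 ± 0.15 (SE) with a limma adjusted p of 0.338, and the exact permutation p was 0.1, the smallest that 3 libraries against 3 can give.

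*INHBA* (ENSG00000122641, chromosome 7 from 41667168 to 41705834, minus strand), which encodes the subunit of activin A, varied within each group more than between the groups. It had 1.12, 0.183 and 2.40 FPKM in the WT lines and 2.35, 0.840 and 2.20 FPKM in the KO lines. The highest and the lowest of the 6 values were both from WT lines. The lines averaged 1.24 ± 1.11 FPKM in WT and 1.80 ± 0.833 FPKM in KO (SD, n = 3 each). KO minus WT, the log2 fold change was 0.56 ± 0.54 (SE), with a 95% interval of -0.71 to 1.83 and a limma adjusted p of 0.613, and it was 0.01 without WT replicate 2 and 1.05 without WT replicate 3. At the estimated depth the 6 values correspond to about 75 to 1265 fragments.

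Over the 6 libraries the tested genes with a profile most like that of *INHBA* on the log2 scale were *HDGF*, with a Pearson r of 0.993, *TXN* with 0.988, *PGAP4* with 0.986, *ZUP1* with 0.986 and *NGEF* with 0.985. They were picked from all 12241 tested genes for this likeness, a choice that by itself selects high values, and the 6 points are single libraries that also share their depth. *TXN*, which encodes thioredoxin, had 695, 377 and 1047 FPKM in the WT lines and 939, 672 and 937 FPKM in the KO lines. As for *INHBA*, replicate 2 was the lowest of each group.

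*TGFB2* (ENSG00000092969, chromosome 1 from 218345336 to 218444619, plus strand), which encodes TGF-beta 2, was below the minimum for testing. It had 0.134, 0.0965 and 0.0261 FPKM in the WT lines and 0.0424, 0.318 and 0.337 FPKM in the KO lines. KO replicates 2 and 3 were above the WT lines, but KO replicate 1 lay among them. The values correspond to about 11 to 173 fragments, and the exact permutation p was 0.3. In each library *TGFB1* exceeded *TGFB2*, by a factor of 87.2 to 982.

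The receptor genes had no common direction. *TGFBR1* had a higher mean in KO, the means of *TGFBR2* were nearly equal, and *ACVR1B* had a lower mean in KO, each with groups that overlapped. *TGFBR1* (ENSG00000106799, chromosome 9 from 99104038 to 99154192, plus strand), the type I receptor for TGF-beta, had 8.30, 6.61 and 9.86 FPKM in the WT lines and 16.2, 8.72 and 22.9 FPKM in the KO lines. KO replicates 1 and 3 exceeded all WT lines, and KO replicate 2 lay between WT replicates 1 and 3. Averages came to 8.25 ± 1.62 FPKM in WT and 16.0 ± 7.09 FPKM in KO (SD, n = 3 each). Its log2 fold change was 0.83 ± 0.33 (SE), with a 95% interval of 0.05 to 1.60, an unadjusted p of 0.0402 and an adjusted p of 0.284 by limma. Without KO replicate 3, which had the lowest mitochondrial share (11.9%), it was 0.52, and without KO replicate 2 it was 1.19. The unadjusted level was kept in 2 of the 6 fits with 1 library left out, and lost without KO replicate 3. With library weights *TGFBR1* was called by limma, at an adjusted p of 0.0474, as were 11.4% of all tested genes, and the adjusted p ranged from 0.0474 to 0.682 over all alternatives.

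*TGFBR2* (ENSG00000163513, chromosome 3 from 30606601 to 30694142, plus strand), the type II receptor for TGF-beta, had 15.7, 11.7 and 14.4 FPKM in the WT lines and 10.4, 14.0 and 18.9 FPKM in the KO lines. The lowest and the highest value were both from KO lines. The lines averaged 13.9 ± 2.03 FPKM in WT and 14.4 ± 4.26 FPKM in KO (SD, n = 3 each). The log2 fold change was 0.02 ± 0.23 (SE), with a 95% interval of -0.52 to 0.56 and a limma adjusted p of 0.972, and its sign depended on the scaling.

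*ACVR1B* (ENSG00000135503, chromosome 12 from 51951699 to 51997078, plus strand), the type I receptor for activin, had 21.8, 24.8 and 26.1 FPKM in the WT lines and 24.8, 19.6 and 17.9 FPKM in the KO lines. KO replicates 2 and 3 were below the WT lines, and KO replicate 1 was level with WT replicate 2. Averages came to 24.2 ± 2.19 FPKM in WT and 20.8 ± 3.61 FPKM in KO (SD, n = 3 each). On the log2 scale the difference was -0.23 ± 0.16 (SE) with a limma adjusted p of 0.492.

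Ratios between genes of the same library do not depend on how libraries are scaled. They were chosen after the values were seen and are given without a test. The ratio of *TGFBR1* to *ACVR1B* was 0.381, 0.266 and 0.378 in the WT lines and 0.654, 0.445 and 1.28 in the KO lines, without overlap between the groups. It was the only one of the ratios computed, including those not shown, for which this held. In KO replicate 3 the TGF-beta type I receptor transcript was thus the more abundant of the pair, whereas *ACVR1B* was in the other 5 libraries. The ratio of *TGFBR1* to *TGFBR2* was 0.531, 0.566 and 0.686 in the WT lines and 1.56, 0.624 and 1.21 in the KO lines. Here KO replicate 2 fell within the WT range.

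**Figure D3:**
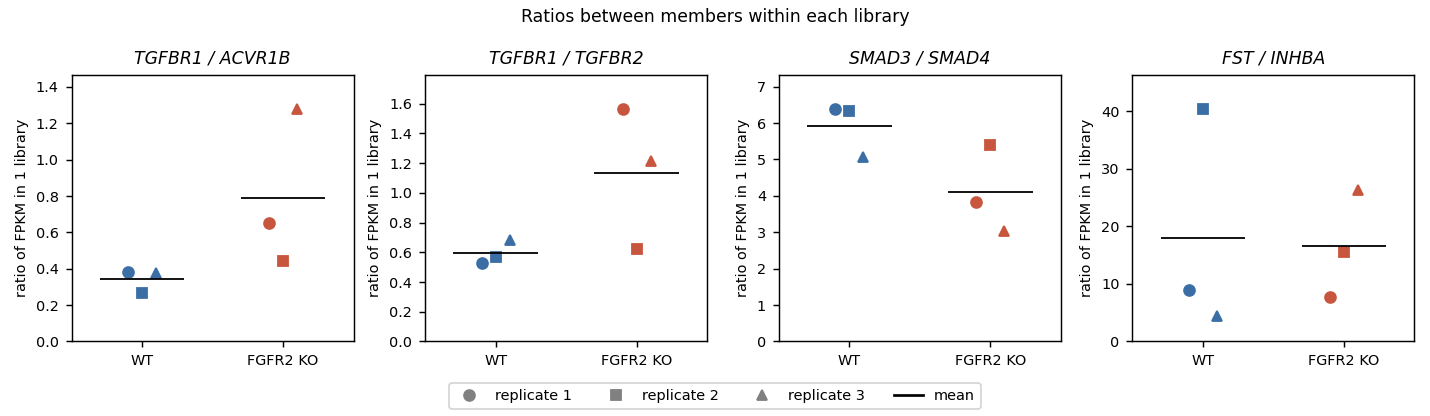
Ratios of the FPKM of 2 genes within the same library (vertical axes, from 0) in the 3 WT and the 3 KO lines, with 1 point per library, the replicate number as symbol and the group mean as a line. *TGFBR1* over *ACVR1B* is the only one of the several ratios computed in which the groups do not overlap. It is at most 0.381 in WT and at least 0.445 in KO.

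Among the SMAD genes, *SMAD3* had a lower and *SMAD4* a higher mean in KO, and neither difference passed the test. *SMAD3* (ENSG00000166949, chromosome 15 from 67063763 to 67195173, plus strand), the receptor-activated transducer, had 155, 168 and 116 FPKM in the WT lines and 102, 136 and 99.7 FPKM in the KO lines. KO replicates 1 and 3 were below all WT lines, while KO replicate 2 was above WT replicate 3. The lines averaged 146 ± 26.9 FPKM in WT and 113 ± 20.6 FPKM in KO (SD, n = 3 each). KO minus WT, the log2 fold change was -0.37 ± 0.20 (SE), with a 95% interval of -0.83 to 0.08 and a limma adjusted p of 0.364. It stayed negative when any single library was left out, between -0.53 and -0.26.

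*SMAD4* (ENSG00000141646, chromosome 18 from 51028528 to 51085045, plus strand), the common partner of the activated SMAD proteins, had 24.2, 26.5 and 22.9 FPKM in the WT lines and 26.5, 25.2 and 32.8 FPKM in the KO lines. Only KO replicate 3 stood above the WT range. Averages came to 24.6 ± 1.81 FPKM in WT and 28.2 ± 4.08 FPKM in KO (SD, n = 3 each). Its log2 fold change was 0.19 ± 0.15 (SE) with a limma adjusted p of 0.53.

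*SMAD3* exceeded *SMAD4* in each library. The ratio was 6.38, 6.33 and 5.06 in the WT lines and 3.84, 5.41 and 3.04 in the KO lines. The ratio of *SMAD3* to *SMAD2*, which encodes the other receptor-activated SMAD of this branch and was looked at after the values were seen, was 11.8, 10.2 and 8.52 in the WT lines and 7.21, 10.2 and 6.28 in the KO lines. In both ratios KO replicates 1 and 3 were below all WT lines and KO replicate 2 was not.

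*SMAD7* (ENSG00000101665, chromosome 18 from 48919853 to 48950965, minus strand), the inhibitory SMAD of the pathway, had 42.1, 28.8 and 42.1 FPKM in the WT lines and 33.5, 37.2 and 32.0 FPKM in the KO lines. All KO values lay between the lowest and the highest WT value. The lines averaged 37.6 ± 7.69 FPKM in WT and 34.3 ± 2.69 FPKM in KO (SD, n = 3 each). The log2 fold change was -0.11 ± 0.18 (SE), with a 95% interval of -0.53 to 0.30 and a limma adjusted p of 0.759.

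*FST* (ENSG00000134363, chromosome 5 from 53480626 to 53487134, plus strand), which encodes the activin-binding protein follistatin, had the largest log2 fold change of the 9 tested genes. It had 10.1, 7.39 and 10.8 FPKM in the WT lines and 18.2, 13.1 and 57.8 FPKM in the KO lines. Each KO line was above each WT line, and KO replicate 3 stood far above the other KO lines. Averages came to 9.42 ± 1.80 FPKM in WT and 29.7 ± 24.4 FPKM in KO (SD, n = 3 each), a ratio of 3.15. On the log2 scale the difference was 1.32 ± 0.49 (SE), with a 95% interval of 0.17 to 2.48, an unadjusted p of 0.0295 and an adjusted p of 0.268 by limma, and the exact permutation p was 0.1. Without KO replicate 3 the log2 fold change was 0.70, and without KO replicate 2 it was 1.75. The unadjusted level was kept in 4 of the 6 fits with 1 library left out. The part of the mitochondrial share, which was lowest in KO replicate 3, was not tested.

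The balance between the *FST* and *INHBA* transcripts had no common direction in the KO lines. The ratio of *FST* to *INHBA* was 9.01, 40.3 and 4.49 in the WT lines and 7.74, 15.6 and 26.3 in the KO lines. The groups overlapped, and the highest ratio was that of WT replicate 2, where *INHBA* was lowest. This balance leaves out *FSTL3*, a gene of the inhibitor list named after its values were seen. The ratio of *FST* to *FSTL3* was 1.95 in KO replicate 3 and at most 0.525 in the other libraries. For *FSTL3* the log2 fold change was 0.57 with a limma adjusted p of 0.308.

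The other genes of the pathway were taken from lists of 51 genes, of which 35 were tested. The test called 0 of them, and 22 had a positive log2 fold change, with a median of 0.03 beside 0.09 over all tested genes. At the unadjusted level *THBS1* and *TGIF2* were higher and *ITGB6* and *BAMBI* lower in KO, 2 and 2 of 35 beside 10.2% and 2.33% of all tested genes. The groups did not overlap for 3 genes with higher and 5 with lower values in KO, to be read against 18.3% and 5.77% of all tested genes.

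**Figure D4:**
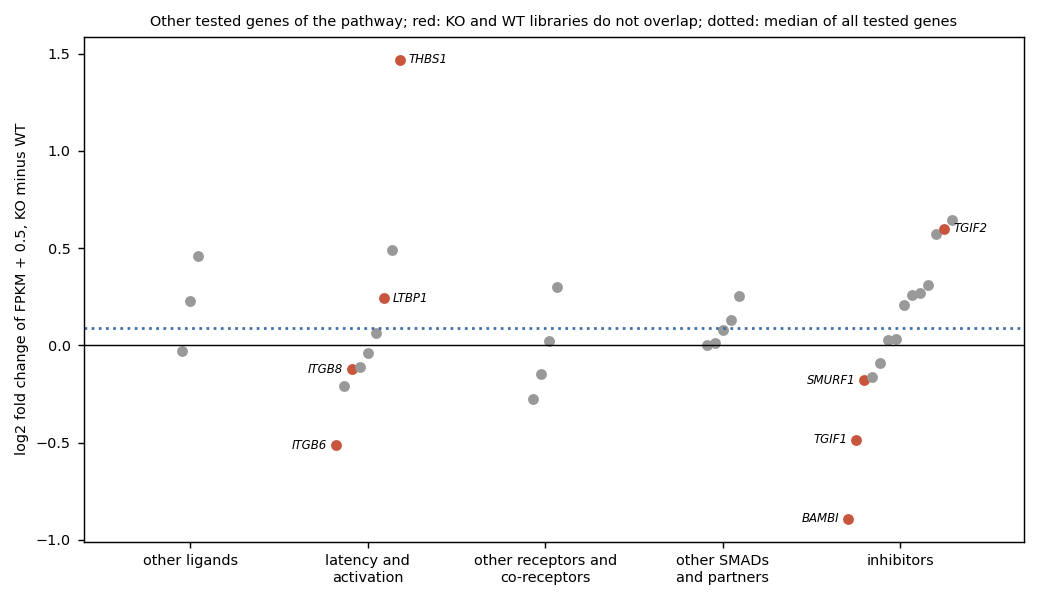
Log2 fold change of FPKM + 0.5, KO minus WT (vertical axis), of the 35 tested genes of the wider pathway, grouped by role, with 1 point per gene. Red and named points are the 8 genes whose groups do not overlap in FPKM as deposited, from *THBS1* at 1.47 to *BAMBI* at -0.89. For *LTBP1* and *ITGB8* the closest WT and KO values are nearly equal. The dotted line is the median of all tested genes, 0.09.

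Of 12 further ligand genes 3 were tested and 0 reached the unadjusted level. The highest of them was *GDF11*, with 0.897 to 1.71 FPKM in WT and 1.08 to 2.88 FPKM in KO, and these ranges overlapped. Of 8 receptor and co-receptor genes 4 were tested and 0 reached that level. The highest was *ACVR1*, a type I receptor used mainly by bone morphogenetic proteins, with a log2 fold change of -0.15 and an adjusted p of 0.702 by limma. Of 6 other SMAD genes and SMAD partners 5 were tested, again with 0 at that level, and *SMAD6*, an inhibitory SMAD, was the highest of them with 32.5 to 40.3 FPKM in WT and 35.3 to 43.7 FPKM in KO.

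Of 11 genes for latency and activation of TGF-beta 9 were tested. *THBS1*, which encodes thrombospondin 1, an activator of latent TGF-beta, had 69.2, 54.7 and 88.3 FPKM in the WT lines and 102, 145 and 481 FPKM in the KO lines. KO replicate 3 was again the highest, and each KO line was above each WT line. KO minus WT, the log2 fold change was 1.47 ± 0.52 (SE) with a limma adjusted p of 0.261, and it was 0.81 without KO replicate 3. *ITGB6*, the beta subunit of an integrin that releases TGF-beta from its latent complex, had 20.5, 20.5 and 15.4 FPKM in the WT lines and 13.3, 13.3 and 12.2 FPKM in the KO lines. All KO lines were lower and close to each other, with a log2 fold change of -0.51 ± 0.16 (SE) and a limma adjusted p of 0.261. Chosen after the values were seen, *LTBP1* was the other gene of this list with each KO line above each WT line and *ITGB8* the other with each below. Their log2 fold changes were 0.24 and -0.12. Both separations were nearly ties in FPKM as deposited. *LTBP1* had 0.6366 FPKM in WT replicate 3 and 0.63786 FPKM in KO replicate 3, and *ITGB8* had 14.028 FPKM in WT replicate 2 and 14.027 FPKM in KO replicate 3.

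All 14 genes for inhibitors of the pathway were tested, and their median log2 fold change was 0.12. *BAMBI*, which encodes a receptor decoy without kinase activity, had 1.79, 1.48 and 3.25 FPKM in the WT lines and 0.742, 1.04 and 0.888 FPKM in the KO lines. Each KO line was below each WT line, with a log2 fold change of -0.89 ± 0.28 (SE) and a limma adjusted p of 0.261. *TGIF2*, which encodes a SMAD corepressor, had 13.7, 10.7 and 12.1 FPKM in the WT lines and 15.7, 19.0 and 21.6 FPKM in the KO lines. Its log2 fold change was 0.60 ± 0.17 (SE) with a limma adjusted p of 0.261. The related corepressor gene *TGIF1*, named after its values were seen, had 11.9, 16.8 and 13.4 FPKM in the WT lines and 10.3, 10.6 and 8.60 FPKM in the KO lines. The 2 corepressor genes thus differed in opposite directions, each without overlap between the groups, and the log2 fold change of *TGIF1* was -0.48 with a limma adjusted p of 0.263. The highest gene of the list was *STRAP*, which encodes a receptor-associated protein, with 132 to 190 FPKM in WT and 185 to 224 FPKM in KO.

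Genes known to be induced by TGF-beta showed no common direction. Of 20 such genes 17 were tested, 0 were called, 10 had a positive log2 fold change, and the median was 0.12. *ADAM19* and *ITGA5* were higher and *CDKN1A*, *CDKN2B* and *ITGB6* lower at the unadjusted level, 2 and 3 of 17 beside 10.2% and 2.33% of all tested genes. The groups did not overlap for 1 gene with higher and 3 with lower values in KO, beside 18.3% and 5.77% of all tested genes. *PMEPA1*, *SKIL*, *ITGB6* and *LTBP2* stand both in this and in a pathway list. *FN1*, the fibronectin gene, named after its values were seen, varied widely within both groups, with 1.28, 0.744 and 10.8 FPKM in the WT lines and 18.2, 1.67 and 5.36 FPKM in the KO lines.

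The cell cycle inhibitors among these targets had lower values in KO. *CDKN2B* had 36.6, 47.5 and 36.1 FPKM in the WT lines and 25.1, 21.4 and 7.07 FPKM in the KO lines. *CDKN1A* had 104, 108 and 112 FPKM in the WT lines and 94.9, 70.1 and 38.1 FPKM in the KO lines. In both genes the groups did not overlap and KO replicate 3 was the lowest. The log2 fold changes were -1.31 ± 0.43 (SE) for *CDKN2B* and -0.76 ± 0.30 (SE) for *CDKN1A*, with limma adjusted p values of 0.261 and 0.28. Without KO replicate 3 they were -0.76 and -0.40.

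Other induced targets had higher values. *ADAM19*, which encodes a membrane metalloproteinase, had 1.17, 2.02 and 1.04 FPKM in the WT lines and 2.52, 4.11 and 14.6 FPKM in the KO lines. Each KO line was above each WT line, KO replicate 3 most of all, and the log2 fold change was 1.68 ± 0.56 (SE) with a limma adjusted p of 0.261, or 1.004 without KO replicate 3. *ITGA5*, a subunit of the fibronectin receptor, had 1.5004, 2.85 and 4.59 FPKM in the WT lines and 7.71, 4.58 and 5.38 FPKM in the KO lines. Here KO replicate 2 was level with WT replicate 3, and the log2 fold change was 0.95 ± 0.36 (SE) with a limma adjusted p of 0.268. It was 0.60 without WT replicate 1 and 1.68 with library weights, and the unadjusted level was kept in 2 of the 6 fits with 1 library left out. The highest target gene, *TGFBI*, which encodes an extracellular matrix protein, had 262 to 415 FPKM in WT and 328 to 607 FPKM in KO, with a log2 fold change of 0.51 and a limma adjusted p of 0.365.

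**Figure D5:**
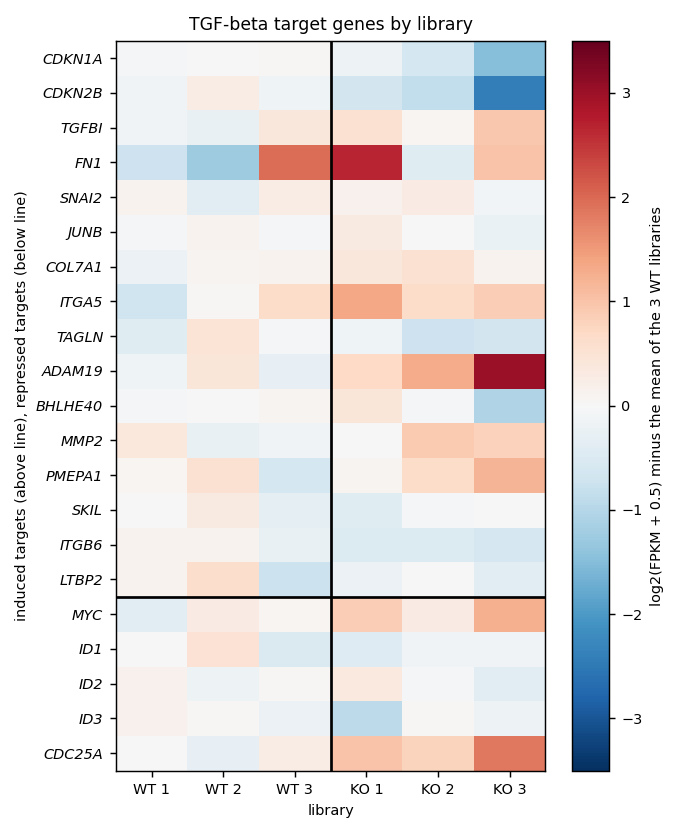
Log2(FPKM + 0.5) of the tested target genes (rows, 1 of them not drawn) in each library (columns), as the difference from the mean of the 3 WT libraries (colour, blue lower and red higher); the horizontal line separates induced from repressed targets and the vertical line WT from KO. The highest difference is that of *ADAM19* in KO replicate 3 (3.02), followed by *FN1* in KO replicate 1 (2.68), and the lowest is that of *CDKN2B* in KO replicate 3 (-2.41).

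Of 5 genes known to be repressed by TGF-beta in keratinocytes or other epithelial cells, all 5 were tested and *MYC* and *CDC25A* were higher in KO at the unadjusted level, beside 10.2% of all tested genes. These 2 were also the genes with each KO line above each WT line, beside 18.3% of all tested genes. *MYC*, which encodes a transcription factor that promotes growth, had 18.6, 29.26 and 25.2 FPKM in the WT lines and 44.1, 29.32 and 57.7 FPKM in the KO lines. The groups did not overlap, although WT replicate 2 and KO replicate 2 were nearly equal. *CDC25A*, which encodes a phosphatase that activates cyclin-dependent kinases, had 4.64, 3.74 and 5.67 FPKM in the WT lines and 9.70, 8.26 and 18.1 FPKM in the KO lines. The log2 fold changes were 0.80 ± 0.27 (SE) for *MYC* and 1.21 ± 0.30 (SE) for *CDC25A*, both with a limma adjusted p of 0.261. With 1 library left out, the unadjusted level was kept in 3 of 6 fits for *MYC*, whose log2 fold change was 0.58 without KO replicate 3, and in 6 of 6 for *CDC25A*. The remaining genes encode ID proteins, and of these *ID3*, the highest of the list, had 380 to 486 FPKM in WT and 230 to 449 FPKM in KO. The median over the 5 was -0.04, with a sign opposite to that of *MYC* and *CDC25A*.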

How the data were processed

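Per the submitters' notes, reads were trimmed with fastp 0.20.0 and pseudoaligned with kallisto 0.46.1 to GRCh38.p13. The authors deposited FPKM per gene and library. How FPKM were derived from the estimated abundances is not given in the sources used here. Of 21493 listed genes, 18 Y copies of pseudoautosomal genes were left out, and 21400 of the remaining 21475 matched a GENCODE symbol and position in GRCh38. Genes averaging 0.5 FPKM or more entered limma (version 3.58.1, R 4.3.3) as log2(FPKM + 0.5), with a mean-variance trend and Benjamini-Hochberg adjustment. Depth was estimated from the steps between low values, of which only 62.3% to 76.6% per library were whole fragments within 0.05, so no count model was run. Promoters are from RefSeq, and all 10 genes matched. The genes named are the 10 pathway genes, members of the other lists whose unadjusted p did not exceed 0.05 and whose log2 fold change was 0.5 or more in either direction, the highest gene of each list, *FGFR2*, and the 5 genes most like *INHBA*. Others are marked as chosen after their values were seen. The genes, lists and tests were chosen with earlier results of these data known. Alternatives were other pseudocounts, filters, scalings, empirical Bayes settings, library weights, a replicate block and leaving out each library. Scaling to nuclear genes was added after the data had been seen. Values of 1 target gene are not reported here.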

Additional observations from a re-analysis of the deposited data

How the results depend on the processing

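The test called 0 genes under each alternative except library weights, in which WT replicate 1 had a weight of 10.3, the other libraries at most 1.495, and 1396 were called, with *TGFBR1* at a log2 fold change of 0.78. The number at the unadjusted level was 630 to 2256 when 1 library was left out, against 1536 with all, with 630 without KO replicate 3 and 960 without WT replicate 1. *TGFBR2* changed sign with median-of-ratios scaling (-0.0711), quantile normalization (-0.0942), library weights (-0.32) and scaling to nuclear genes (-0.0562), and ranged from -0.19 to 0.23 with 1 library left out. *ACVR1B* was at 0.009 with library weights. The other 7 tested genes kept their sign in each alternative that could be computed. The median log2 fold change of the wider pathway genes was -0.0345 with median-of-ratios scaling, -0.0458 with quantile normalization, -0.025 with scaling to nuclear genes, -0.005 with library weights and -0.0046 without a filter, and 0.0051 to 0.11 with 1 library left out. That of the induced targets was 0.36 with a mean of at least 2 FPKM, 0.0272 with median-of-ratios scaling and 0.014 with quantile normalization, and 0.0425 to 0.24 with 1 library left out. That of the repressed targets was -0.0001 with TPM scaling, -0.13 with median-of-ratios scaling, -0.14 with quantile normalization, 0.0085 with library weights and -0.12 with scaling to nuclear genes, and -0.0624 to 0.14 with 1 library left out. The causes were not tested. In a fit with a replicate block 0 genes were called and 1762 reached the unadjusted level. The deviations of same-numbered libraries from their group means had an r of -0.21, 0.22 and 0.05, within the range of differently numbered libraries (-0.37 to 0.29). So few libraries cannot decide whether the numbers pair the lines, and the labels do not say. *INHBA* has no value at a mean of at least 2 FPKM, and *TGFB2* has one only without a filter. The lowest estimated fragment numbers were 11 for *TGFB2* and 75 for *INHBA*.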
